A study of Homo sapiens with 8 samples.

Results

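A set of 5 long non-coding RNAs (lncRNAs, transcripts with no annotated protein product) were followed through a knockdown of NAT10: LINC03040, MALAT1, NEAT1, LINC01128 and LINC00115. They were taken from the count table by name, out of 86369 gene rows, and all 5 of 5 were among the 13840 genes with enough counts to be tested. The names were chosen by the measured log2 fold changes between the siRNAs, LINC03040 being among the strongest decreases, so the differences of the 5 lncRNAs between the siRNAs are given as a description, without a p-value. Of the 17693 lncRNA genes of the annotation that had a row, 1908 were tested, and 1903 of these lay outside the 5.

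The cells were HepG2, an established line from a human hepatocellular carcinoma. All 8 libraries came from this line, lipofected with a short interfering RNA (siRNA) and harvested 2 days later. The siCtrl group (n = 4) received a negative control siRNA and the siNAT10 group (n = 4) an siRNA against NAT10, the enzyme that acetylates cytidine in RNA. Replicates 1 and 2 of both groups were labelled batch 1 and replicates 3 and 4 batch 2; what distinguishes the batches is not stated. The labels do not say whether replicates were separate cultures, so p-values measure only the spread between these samples. They also do not give the number of siRNA sequences used.

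Total counts per library ran from 9731718 to 27977110. Abundance is given as CPM, each library's counts brought to a common total with TMM scaling, and since the assay counts 3′ ends it was not divided by length. NAT10 itself ran from 39.2 to 77.8 CPM in siCtrl and from 12.2 to 22.3 CPM in siNAT10, with 31.6% of the control level left (log2 fold change -1.66 ± 0.14 SE, edgeR adjusted p = 2.0e-05). Of 15 hepatocyte genes, 13 had a mean of at least 8 CPM, while APOB did not exceed 0.328 CPM and SERPINA1 lay between 1.70 and 13.2 CPM. Their summed level was 12367 to 13669 CPM in siCtrl and 10102 to 11190 CPM in siNAT10. The 15 did not move together: edgeR called FGG higher (163 to 189 CPM in siCtrl, 215 to 267 CPM in siNAT10) and APOA2 and TF lower, and ALB alone made up 4266 to 4627 CPM of the siCtrl sum and 3232 to 3644 CPM of that in siNAT10. Of 13 markers of other cell types, 11 had a mean under 3 CPM, with PTPRC, CD3E and COL3A1 at 0 in all libraries. The exceptions were LYZ (405 to 552 CPM in siCtrl, 330 to 385 CPM in siNAT10) and EPCAM (163 to 225 CPM and 205 to 224 CPM). The 13 summed to 603 to 731 CPM in siCtrl and 557 to 597 CPM in siNAT10. Of the 13, 5 were tested, and edgeR called 1 lower and 0 higher in siNAT10. The part of these marker levels in the results below was not tested. In these bulk samples, fewer cells carrying a transcript and less of it per cell cannot be told apart.

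MALAT1 and NEAT1 are abundant nuclear RNAs transcribed from neighbouring genes. MALAT1 gathers in nuclear speckles, bodies rich in splicing factors, and NEAT1 is the scaffold of paraspeckles, bodies that form on its long isoform with proteins such as NONO and SFPQ. The long NEAT1 isoform and MALAT1 end not in an ordinary poly(A) tail but in an encoded A-rich tract that folds with upstream U-rich stretches into a triple helix, left when RNase P cuts off a small tRNA-like RNA; the short NEAT1 isoform is polyadenylated.

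The assay primes on runs of A, so the 3′ ends decide what is counted. The first pair of sequences is shown because in MALAT1 and long NEAT1 the run of A at the end is encoded in the genome. They are the 100 bases before the annotated tRNA-like RNA (57 bases in MALAT1, 58 bases in NEAT1), 5′ to 3′ on the plus strand of GRCh38, at chr11:65506017-65506116 for MALAT1 and chr11:65445441-65445540 for NEAT1. Capitals mark a stretch of 16 bases that both share and the A-rich tract at the end.
MALAT1: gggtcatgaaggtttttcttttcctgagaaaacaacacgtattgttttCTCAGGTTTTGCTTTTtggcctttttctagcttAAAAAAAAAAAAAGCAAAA
NEAT1: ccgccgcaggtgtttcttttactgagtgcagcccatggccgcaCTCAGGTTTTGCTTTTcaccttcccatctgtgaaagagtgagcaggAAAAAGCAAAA
The terminal tract was 19 bases long in MALAT1, with an unbroken run of 13 A, and 11 bases long in NEAT1, with a run of 5 A. Over the 1908 tested lncRNA genes, runs of A were measured at the end of the main annotated transcript of each gene. A run of at least 10 A was found in its last 50 bases for 3.72%, and in the 50 bases after it for 4.19%. On that measure the longest run was 5 A before and 2 A after the end for MALAT1, and 5 A and 1 A for NEAT1. Neither gene is therefore counted in these shares, and the run of 13 A in MALAT1 is not comparable with them.

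The last 60 bases of 5 other annotated transcripts are shown because they carry, or lack, the hexamers AATAAA and ATTAAA that usually precede cleavage and polyadenylation. Capitals mark these hexamers, searched on the transcribed strand. The long and the shorter isoform of LINC03040 end at chr6:44007553-44007612 and chr6:44005091-44005150, short NEAT1 at chr11:65426454-65426513 and LINC01128 at chr1:859387-859446, all on the plus strand, and LINC00115 at chr1:824228-824287 on the minus strand.
LINC03040, long isoform: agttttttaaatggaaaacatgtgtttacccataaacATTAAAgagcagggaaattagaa
LINC03040, shorter isoform: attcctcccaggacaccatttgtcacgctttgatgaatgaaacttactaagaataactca
NEAT1, short isoform: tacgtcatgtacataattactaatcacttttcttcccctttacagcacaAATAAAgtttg
LINC01128: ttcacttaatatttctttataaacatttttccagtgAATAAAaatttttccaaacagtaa
LINC00115: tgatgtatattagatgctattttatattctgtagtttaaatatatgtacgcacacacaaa
ATTAAA stood 17 bases before the end of long LINC03040, and AATAAA 5 bases before the end of short NEAT1 and 18 bases before that of LINC01128. Neither hexamer was found in the window of the shorter LINC03040 isoform or of LINC00115. Among the tested lncRNA genes, 54.1% had one of these hexamers in the last 50 bases. Gene-level counts do not separate the isoforms of LINC03040 or of NEAT1.

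Across the 8 libraries the levels of the 5 lncRNAs spanned a wide range. MALAT1 had a mean of 1002 CPM and ranked 3 among the 1908 tested lncRNA genes, NEAT1 131 CPM (rank 21), LINC03040 15.9 CPM (rank 152), LINC01128 13.0 CPM (rank 185) and LINC00115 3.39 CPM (rank 630). MALAT1 lay above NEAT1 in every library, and NEAT1 above the other 3. LINC03040 and LINC01128 changed places: LINC03040 was the higher in all 4 siCtrl libraries, and in siNAT10 it was the higher in replicate 1 alone. LINC00115 was the lowest in every library.

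**Figure D1:**
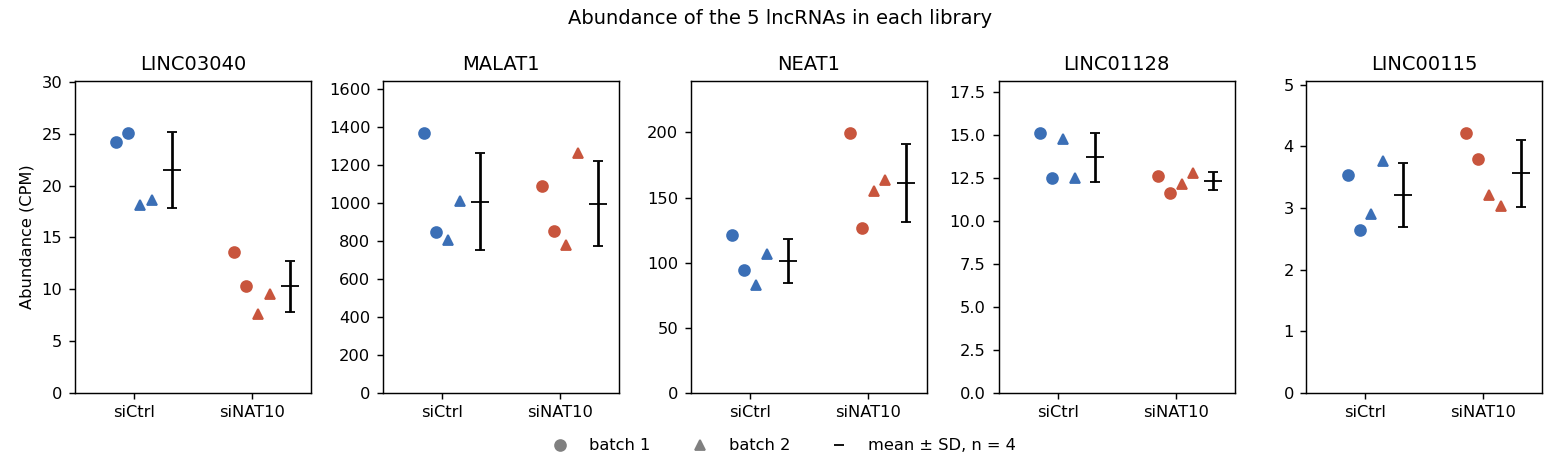
Abundance of each lncRNA in CPM (linear axis from 0, own scale per panel) in the 4 siCtrl (blue) and 4 siNAT10 (red) libraries, with circles for batch 1, triangles for batch 2 and black bars for mean ± SD. The siCtrl and siNAT10 points are apart for LINC03040 (18.1 CPM or more against 13.6 CPM or less) and NEAT1 (122 CPM or less against 126 CPM or more), and overlap for the other 3.

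LINC03040 (ENSG00000181577) occupies chr6:44000580-44007612 on the plus strand. Its counts ran from 97 to 667 per library. In siCtrl it stood at 24.2, 25.1, 18.1 and 18.6 CPM in replicates 1 to 4, and in siNAT10 at 13.6, 10.3, 7.61 and 9.58 CPM. All siNAT10 libraries lay below all siCtrl libraries, and in both groups the batch 1 libraries lay above those of batch 2. The group means were 21.5 ± 3.66 and 10.3 ± 2.48 CPM (SD, n = 4), a fitted log2 fold change of -1.07 ± 0.13 (SE), or 47.5% of the control level. Fitted alone, batch 1 gave -1.05 and batch 2 -1.09. By fold change it was number 51 from the lowest of all 13840 genes.

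NEAT1 (ENSG00000245532) occupies chr11:65422774-65445540 on the plus strand and had 1474 to 3646 counts per library. It stood at 122, 94.4, 82.8 and 107 CPM in siCtrl and at 200, 126, 155 and 163 CPM in siNAT10. The groups did not overlap, but the gap was narrow: the lowest siNAT10 library (replicate 2) was just above the highest siCtrl library (replicate 1). Means were 101 ± 16.6 and 161 ± 30.2 CPM (SD, n = 4), a log2 fold change of 0.67 ± 0.14, or 159% of the control level. Batch 1 gave 0.59 and batch 2 0.75.

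MALAT1 (ENSG00000251562) lies downstream at chr11:65497640-65508073, also on the plus strand, and had 9924 to 37655 counts per library. It stood at 1369, 846, 804 and 1008 CPM in siCtrl and at 1092, 853, 778 and 1263 CPM in siNAT10. The ranges overlapped almost fully, with high and low libraries in both groups. Means were 1007 ± 257 and 997 ± 222 CPM (SD, n = 4), a log2 fold change of -0.01 ± 0.17. The sign differed between the batches, at -0.19 in batch 1 and 0.18 in batch 2. At 9924 counts or more per library, counting error is small beside these SDs.

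LINC01128 (ENSG00000228794) occupies chr1:825138-859446 on the plus strand. It stood at 15.1, 12.5, 14.8 and 12.5 CPM in siCtrl and at 12.6, 11.6, 12.2 and 12.8 CPM in siNAT10, from 131 to 416 counts. The siNAT10 libraries lay within or just below the siCtrl range, with a log2 fold change of -0.16 ± 0.13. LINC00115 (ENSG00000225880), on the minus strand at chr1:824228-827539, stood at 3.53, 2.65, 2.90 and 3.76 CPM in siCtrl and at 4.21, 3.79, 3.22 and 3.03 CPM in siNAT10. The groups overlapped, and its fold change of 0.16 ± 0.22 on the log2 scale rested on only 31 to 109 counts per library. In batch 1 it was 0.36 and in batch 2 -0.08.

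In the edgeR fit over all genes, 2.28% passed a Benjamini-Hochberg adjusted p of 0.05 and are termed called (113 higher, 0.816%, and 202 lower, 1.46%). With library size alone as the scaling the split was 138 higher and 149 lower. LINC03040 was in the lower set and NEAT1 in the higher set, 2 of the 5. The same 2 had groups of 4 that did not overlap in CPM, as had 5.4% of all tested genes. Because this contrast was used to choose the lncRNAs, nothing is read from these counts. LINC03040 left the called set when batch 2 was fitted alone and when batch was not in the model. NEAT1 left it in those 2 fits, in batch 1 alone, and without siCtrl replicate 2 or siNAT10 replicate 1, where its log2 fold change was 0.62 and 0.54.

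**Figure D2:**
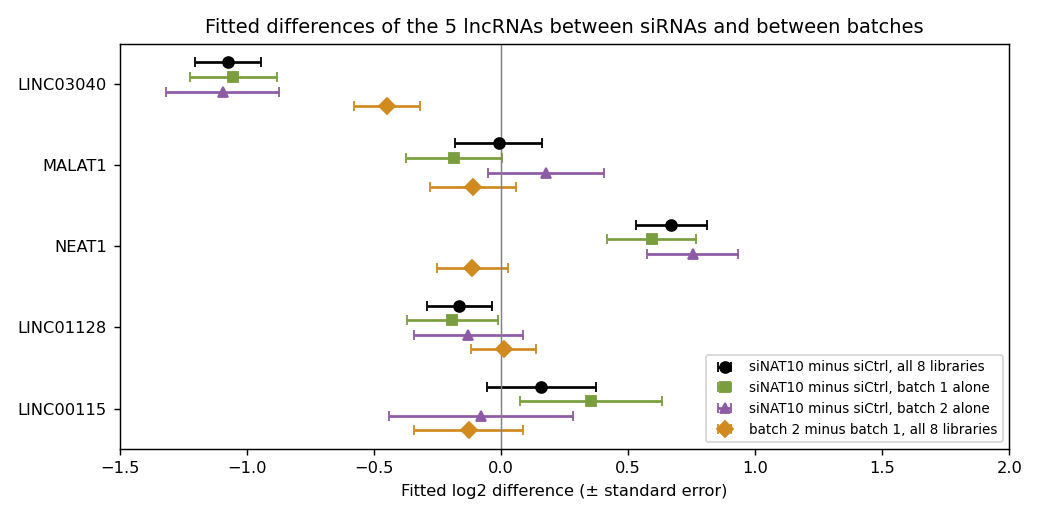
Fitted log2 differences with standard errors (x axis) for each lncRNA (rows): siNAT10 minus siCtrl in all libraries, in batch 1 alone and in batch 2 alone, and batch 2 minus batch 1. LINC03040 lies near -1.07 and NEAT1 near 0.67 in both batches, and the batch difference of LINC03040 (-0.45) is the one farthest from 0.

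Batch was a contrast that the choice of the lncRNAs did not use. Of all genes, 25.3% were called between batch 2 and batch 1 (12.2% lower in batch 2), and of the 5 lncRNAs 1 was called, LINC03040. It was lower in batch 2 by -0.45 ± 0.13 on the log2 scale (edgeR adjusted p = 0.018), with means of 24.7 and 18.4 CPM in the siCtrl libraries of batches 1 and 2, and 11.9 and 8.59 CPM in those of siNAT10. The call was lost (adjusted p up to 0.069) on removal of siNAT10 replicate 1, of siNAT10 replicate 3 or of siCtrl replicate 2, and when all libraries were thinned to the smallest total. The batch differences of MALAT1 (-0.11 ± 0.17, adjusted p = 0.68), NEAT1 (-0.11 ± 0.14, 0.59), LINC01128 (0.01 ± 0.13, 0.96) and LINC00115 (-0.13 ± 0.22, 0.71) did not pass the threshold.

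Whether the siRNA difference itself differed between batches was tested with an interaction term. In edgeR this called 0 genes (0% of 13840, with 421 at an unadjusted p under 0.05 and 1 call by DESeq2), and 0 of the 5. The change of log2 fold change from batch 1 to batch 2 was 0.36 ± 0.34 for MALAT1 (edgeR unadjusted p = 0.31) and -0.44 ± 0.43 for LINC00115 (0.33). It was 0.16 ± 0.29 for NEAT1 (0.59), 0.06 ± 0.27 for LINC01128 (0.83) and -0.05 ± 0.27 for LINC03040 (0.86). With these standard errors a difference between batches of the size of its standard error was not detectable for any of them.

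Ratios of counts within a library do not depend on how libraries are scaled. The lncRNAs were chosen by this siRNA contrast, so the ratios here and below restate the differences above. They are a description and add no support, and how many other gene pairs separate was not counted. MALAT1 gave 11.3, 8.96, 9.72 and 9.46 counts per NEAT1 count in siCtrl and 5.47, 6.75, 5.03 and 7.73 in siNAT10. Every siNAT10 ratio was below every siCtrl ratio (means 9.85 ± 0.99 and 6.25 ± 1.23, SD, n = 4). The ratio of LINC03040 to LINC01128, of similar abundance, was 1.60, 2.01, 1.23 and 1.49 in siCtrl and 1.07, 0.887, 0.626 and 0.748 in siNAT10, again without overlap. The ratio of LINC01128 to LINC00115 was 4.29, 4.72, 5.08 and 3.33 in siCtrl and 3.00, 3.07, 3.78 and 4.23 in siNAT10, and these ranges overlapped.

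**Figure D3:**
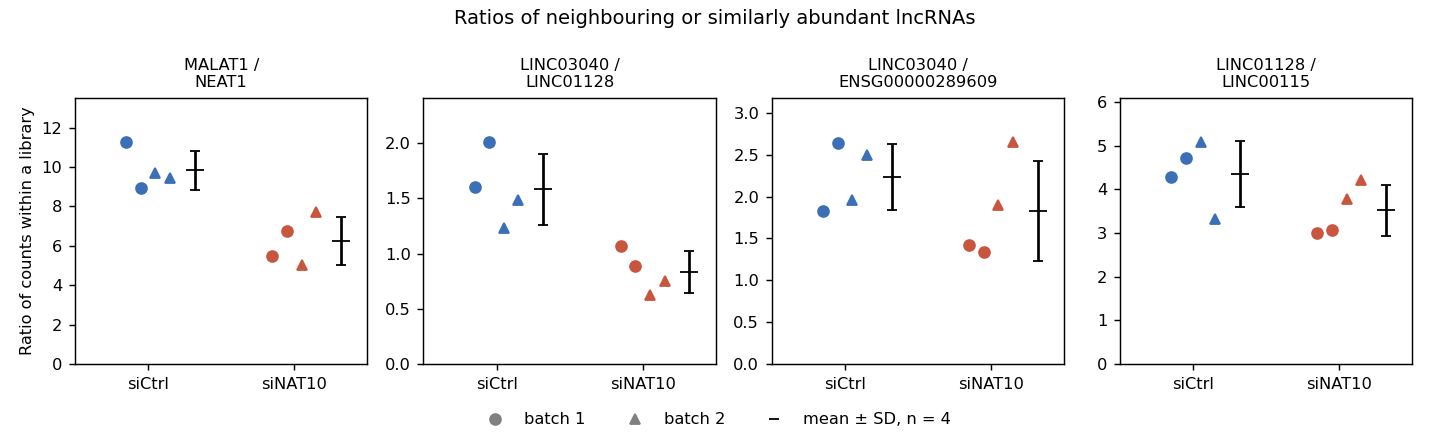
Ratio of the counts of 2 lncRNAs within each library (y axis from 0, own scale per panel) for siCtrl (blue) and siNAT10 (red), with circles for batch 1, triangles for batch 2 and black bars for mean ± SD. The groups are apart for MALAT1 to NEAT1 (8.96 or more against 7.73 or less) and for LINC03040 to LINC01128 (1.23 or more against 1.07 or less), and overlap in the other 2 panels.

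Around LINC03040 the annotation places 4 other tested genes within 100 kb, all lncRNA genes. LINC03040 lies inside the span of SCIRT (ENSG00000237686), which runs on the opposite strand. Their exons share 277 bases, 4.97% of the exonic bases of LINC03040. How featureCounts treated strand is not given in the sources used here, so reads in that stretch cannot be assigned with certainty. SCIRT averaged 19.5 ± 2.97 CPM with siCtrl and 19.02 ± 9.06 CPM with siNAT10 (log2 fold change -0.09 ± 0.19, edgeR adjusted p = 0.87). The ratio of LINC03040 to SCIRT counts was 1.38, 1.51, 0.787 and 0.892 in siCtrl and 0.773, 1.10, 0.243 and 0.538 in siNAT10. It was lower in siNAT10 within each batch, but the groups overlapped as a whole. The lowest ratio was in siNAT10 replicate 3, where SCIRT stood at 31.3 CPM, against 9.42 to 17.8 CPM in the other siNAT10 libraries.

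The nearest gene on the strand of LINC03040 is ENSG00000289609 (chr6:43990798-43999561), which ends 1018 bases before LINC03040 begins. The last 60 bases of its main transcript, chr6:43999502-43999561 on the plus strand, are shown because that end faces the start of LINC03040 and holds a cluster of 6 AATAAA hexamers, some of them overlapping (capitals).
ENSG00000289609: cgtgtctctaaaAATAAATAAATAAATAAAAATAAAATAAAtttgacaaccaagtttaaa
It stood at 13.3, 9.49, 9.23 and 7.44 CPM in siCtrl and at 9.52, 7.75, 4.00 and 3.62 CPM in siNAT10. In batch 2 both siNAT10 libraries were below both siCtrl libraries. In batch 1 siNAT10 replicate 1 (9.52 CPM) was just above siCtrl replicate 2 (9.49 CPM), so the groups overlapped there and as a whole. Its log2 fold change was -0.72 ± 0.19, which did not pass the threshold (edgeR adjusted p = 0.055). With the replicate number as a block (a pairing the labels do not state) the edgeR adjusted p was 0.035, and with DESeq2 0.015. Like LINC03040 it was lower in batch 2 (-0.76, edgeR adjusted p = 0.0069). This was not particular to the pair. The near genes ENSG00000231881 (-1.78, 1.1e-06) and ENSG00000287562 (-1.16, 0.0033) were also lower in batch 2, and SCIRT was higher (0.62, 0.028). Over all genes 25.3% were called between the batches. ENSG00000289609 shares 291 exonic bases, 37.9% of its own, with SCIRT on the other strand. The ratio of LINC03040 to ENSG00000289609 was 1.83, 2.64, 1.96 and 2.50 in siCtrl and 1.43, 1.33, 1.90 and 2.65 in siNAT10. These ranges overlapped.

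The other near genes, ENSG00000231881 (-0.23 ± 0.14, adjusted p = 0.48) and ENSG00000287562 (-0.11 ± 0.25, adjusted p = 0.87), did not pass the threshold. Of 25 tested genes within 500 kb of LINC03040, 0 were called by edgeR, 4 had an unadjusted p under 0.05 and 4 were called by DESeq2. Over all 13840 genes edgeR called 2.28%, 15.7% had an edgeR unadjusted p under 0.05, and DESeq2 called 599. The edgeR counts are near these shares. The DESeq2 share, 4 of 25, is higher than 599 of 13840 but rests on 4 genes, and the reason was not tested. No trait of the locus is read from any of these counts.

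NEAT1 and MALAT1 are 52100 bases apart, and 47 other tested genes lie within 500 kb of each. Apart from NEAT1 itself, 1 of these was called, against 2.28% of all genes, so no trait of the locus is read from this count. The called gene was EFEMP2, which encodes an extracellular matrix protein and lies 358368 bases from MALAT1. It was lower in siNAT10 (34.0 ± 7.44 to 22.6 ± 5.15 CPM, log2 fold change -0.59 ± 0.12, edgeR adjusted p = 0.015); without 1 of 3 libraries (siCtrl replicate 1, siCtrl replicate 2 or siNAT10 replicate 2) the adjusted p rose to between 0.051 and 0.069. ENSG00000291174, in the interval between the 2 lncRNA genes, had a log2 fold change of -0.26 ± 0.16 (adjusted p = 0.47). ENSG00000290057, just upstream of NEAT1, had -0.14 ± 0.28 (0.86) and FRMD8 before it -0.10 ± 0.13 (0.78). SLC25A45, 39073 bases upstream of NEAT1, had -0.59 ± 0.23 (0.20), and further upstream TIGD3 had 0.32 ± 0.17 (0.37) and DPF2 0.11 ± 0.11 (0.69). Beyond MALAT1, the log2 fold changes of LTBP3, ZNRD2, FAM89B, ENSG00000289339, EHBP1L1 and MAP3K11 lay between -0.37 (ZNRD2, adjusted p = 0.27) and 0.0030 (ENSG00000289339, 0.998), and they did not pass the threshold.

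TALAM1, the antisense transcript of MALAT1, covers 77.8% of the exonic bases of MALAT1 on the opposite strand. It had 0 to 26 counts per library, where MALAT1 had at least 9924. Its log2 fold change was 1.30 ± 0.58 (edgeR adjusted p = 0.28), and DESeq2 gave it no adjusted p. Without a stated strand setting its reads and those of MALAT1 cannot be told apart.

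The main transcripts of LINC00115 and LINC01128 start close together and run away from each other. Other LINC01128 transcripts start further left, so that the annotated spans of the genes overlap by 2402 bases. They share 507 exonic bases, 15.3% of LINC00115 and 2.82% of LINC01128. The region around both starts is shown because the 2 lncRNAs share it. It is 179 bases at chr1:827480-827658 of GRCh38, written on the plus strand, with the 58 bases between the start of LINC00115 (827539, running left) and that of the main LINC01128 transcript (827598, running right) in capitals.
LINC00115 and LINC01128 starts: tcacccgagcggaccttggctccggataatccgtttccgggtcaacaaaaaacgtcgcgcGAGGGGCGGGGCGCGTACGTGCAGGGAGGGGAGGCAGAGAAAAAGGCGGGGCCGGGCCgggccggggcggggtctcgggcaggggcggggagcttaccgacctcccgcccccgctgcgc
It holds 24 CpG sites and 72.6% G or C. Among windows of that length centred on the start of each of the 1908 tested lncRNA genes, 16.1% were at least as rich in G and C. The region shown spans both starts, so its window is not placed alike. Centred on its own start, LINC00115 had 69.8% and LINC01128 73.7%. With this shared start region the fitted log2 fold changes were 0.16 ± 0.22 for LINC00115 and -0.16 ± 0.13 for LINC01128, each near its standard error in size. Of 32 other tested genes within 500 kb of LINC01128, 1 was called, against 2.28% of all genes, so no trait of the locus is read from it. The called gene was ACAP3, 432944 bases away, which encodes a GTPase-activating protein for ARF proteins. ACAP3 rose from 15.4 ± 1.90 to 24.3 ± 2.11 CPM (log2 fold change 0.65 ± 0.12, edgeR adjusted p = 0.011). Without siCtrl replicate 2 its adjusted p was 0.051. The nearest other genes were NOC2L (0.10 ± 0.10, adjusted p = 0.70), SAMD11 (-0.77 ± 0.40, 0.36, with 6 to 41 counts) and LINC01409 (-0.26 ± 0.38, 0.80).

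**Figure D4:**
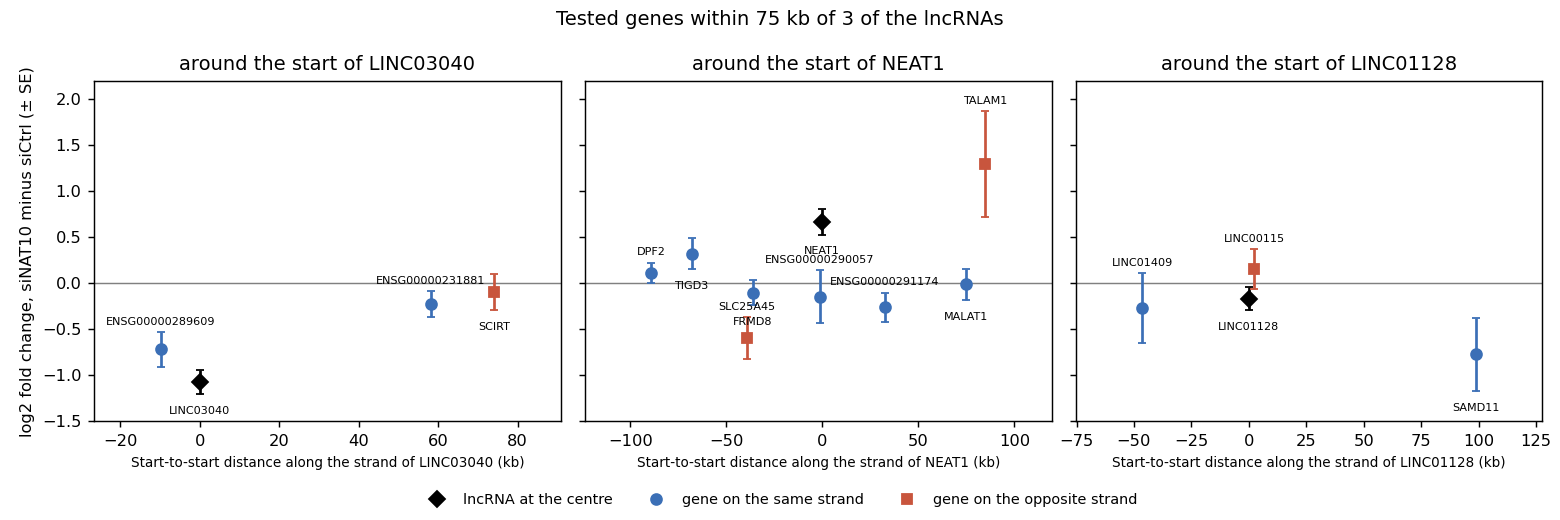
Fitted log2 fold change with standard error (y axis) of tested genes whose spans lie within 75 kb of LINC03040, NEAT1 or LINC01128, by start-to-start distance in kb along the strand of that lncRNA (x axis), with circles for the same and squares for the opposite strand. LINC03040 (-1.07) and ENSG00000289609 (-0.72) are the lowest points of their panel, and NEAT1 (0.67) lies above its neighbours other than TALAM1 (1.30).

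Among all lncRNA genes, calls after NAT10 knockdown were few. Of the 1903 outside the 5, 5 were higher and 14 lower, 0.998% against 2.61% of 10901 protein-coding genes. Scaled by library size alone, 7 were higher and 9 lower. The median log2 fold change was -0.0022 in these lncRNA genes and -0.0024 over all genes. They were also far less abundant, with a median of 1.98 CPM against 15.5 CPM over all genes, and the part of this in the lower share was not tested. Each of the 19 calls was lost in at least 1 of the 8 fits that left out a library, and 0 of the 19 were called without the batch term.

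The called lncRNA genes with a symbol and the largest decreases, beside LINC03040, were LARRPM (log2 fold change -1.17 ± 0.28, edgeR adjusted p = 0.041), HK2-DT (-1.10 ± 0.27, 0.042), LINC01484 (-0.74 ± 0.16, 0.021) and NIPBL-DT (-0.69 ± 0.16, 0.037). HK2-DT and NIPBL-DT are divergent transcripts, named for the gene that starts beside them. Among LINC-named genes outside the 5, LINC01484 was the 1 called of 191. The increases with a symbol, beside NEAT1, were PRKCZ-AS1 (1.38 ± 0.29, 0.022), SAP30-DT (0.98 ± 0.22, 0.029) and THAP9-AS1 (0.71 ± 0.16, 0.028). Those 7 genes had group means of at most 11.4 CPM, against 161 CPM for NEAT1 in siNAT10. The called genes without a symbol were 7 lower (-1.39 to -0.58) and 2 higher (0.98 and 1.34).

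**Figure D5:**
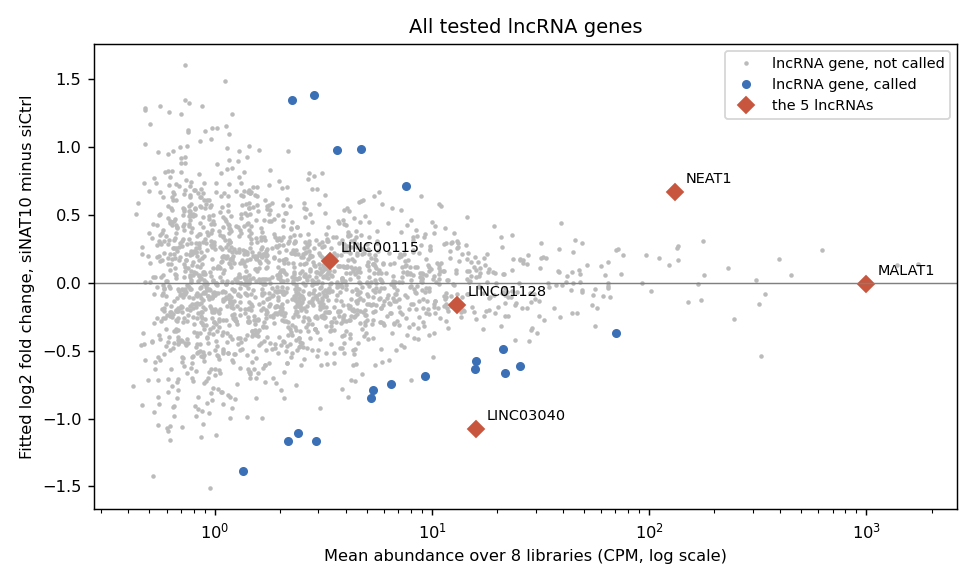
Fitted log2 fold change, siNAT10 minus siCtrl (y axis), against mean CPM over the 8 libraries (x axis, log scale) for the 1908 tested lncRNA genes, with called genes in blue and the 5 lncRNAs as red diamonds. NEAT1 (0.67 at 131 CPM) and LINC03040 (-1.07 at 15.9 CPM) stand outside the cloud at their abundance, and MALAT1 lies near 0 at 1002 CPM.

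Counted as a share of all counts, lncRNA genes made up 1.87 ± 0.07% in siCtrl and 1.95 ± 0.05% in siNAT10 (SD, n = 4). The difference of 0.088 percentage points gave p = 0.11 in an exact two-sided permutation test over 70 arrangements and p = 0.17 over the 36 that exchange labels within batches. Without MALAT1 and NEAT1 it was 0.080 percentage points (exact p = 0.057, and 0.11 within batches). Neither passed 0.05. Between batches, 345 of the 1903 lncRNA genes were called (18.1%, against 25.3% of all genes), 185 of them higher in batch 2. Host genes of small RNAs, with names in HG, made up 20 of these calls out of 44 tested, 45.5%. Their median abundance was 9.39 CPM, against 1.98 CPM in the 1903 and 15.5 CPM over all genes. The part of abundance in these shares was not tested.

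The well-known lncRNAs outside the 5 came from a list written from general knowledge, and 45 of 70 were tested. Of these, 1 was called higher (THAP9-AS1) and 1 lower (OIP5-AS1), with a median log2 fold change of 0.05. Over all genes 0.816% were called higher and 1.46% lower, and 2 calls among 45 are too few to set against these shares. OIP5-AS1, also called cyrano, fell from 79.8 ± 2.15 to 61.6 ± 1.28 CPM (-0.37 ± 0.09, edgeR adjusted p = 0.042), but the call was lost in all 8 fits that left out a library. LINC00261, a neighbour of the liver transcription factor gene FOXA2, stood at 403 ± 275 and 250 ± 125 CPM, and the wide SD went with a batch difference of 1.60 on the log2 scale. Its log2 fold change was -0.54 ± 0.14, with an adjusted p of 0.051, and of 0.031 with the replicate number as a block. NORAD, which binds Pumilio proteins, had -0.15 ± 0.10 (0.51), TUG1 0.13 ± 0.11 (0.64), CYTOR -0.06 ± 0.12 (0.88) and the imprinted KCNQ1OT1 0.26 ± 0.16 (0.48).

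Of 26 genes of proteins that assemble with NEAT1 in paraspeckles, edgeR called 0 between the siRNAs, against 2.28% of all genes. An edgeR unadjusted p under 0.05 was found for 4 of them, against 15.7% of all genes. DESeq2 called 0, and the median log2 fold change was 0.02. These counts are near the shares over all genes, so nothing particular to the list is read from them. NONO, a core paraspeckle protein, had the lowest value (-0.29 ± 0.10, adjusted p = 0.18), and NUDT21, a subunit of the cleavage factor that sets the polyadenylation site of NEAT1, the highest (0.31 ± 0.10, 0.13). Between the batches 9 of the 26 were called (34.6%, against 25.3% of all genes), among them PSPC1, which was higher in batch 2 by 1.03 (adjusted p = 5.3e-06).

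Of 28 nuclear speckle and SR protein genes, the company of MALAT1, edgeR called 0 between the siRNAs, against 2.28% of all genes. An edgeR unadjusted p under 0.05 was found for 4 of them, against 15.7% of all genes. DESeq2 called 1, and the median log2 fold change was 0.01. SRPK2, a kinase of SR proteins, had the lowest value, -0.55 ± 0.16, with an adjusted p of 0.089, and of 0.019 with the replicate block. Between batches 18 of these 28 were called (64.3%, against 25.3% of all genes and 27.6% of protein-coding genes). The part of their abundance in this share was not tested. Of 28 genes of nuclear RNA end processing and decay, edgeR called 0 between the siRNAs (2.28% over all genes). An edgeR unadjusted p under 0.05 was found for 1 of them (15.7% over all genes). DESeq2 called 0, and the median log2 fold change was -0.05. ELAC2, the nuclease that trims tRNA-like 3′ ends, had -0.14 ± 0.19 (0.79), and METTL16, which binds the MALAT1 triple helix, -0.06 ± 0.12 (0.87).

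The 3 genes whose log2 CPM followed each lncRNA most closely were sought among 8663 genes with a mean of at least 8 CPM, by Pearson's r over the 8 libraries after the batch mean was removed. For LINC03040 they were MATN3 (r = 0.996), BLTP2 (0.992) and PAFAH2 (0.990), and for NEAT1 ZMIZ2 (0.971), FAM13A-AS1 (0.965) and NSD3 (0.961). For MALAT1 they were ZNF791 (0.962), DST (0.957) and GCC2 (0.944). LINC01128 was followed by SARS1 (0.963), HOMER1 (0.959) and PIGBOS1 (0.952), and LINC00115 by ATF7IP2 (0.973), MAP7D1 (0.967) and TGM2 (0.949). These are the highest of 8663 values over 8 points that share libraries and depth, so they describe likeness in these libraries only. The siRNA difference was not removed before r was computed, so these genes' own differences between the siRNAs follow from how they were picked and are not given as a result.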

How the data were processed

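QuantSeq 3′ mRNA-seq libraries of 8 samples were analysed. The deposited values are raw gene counts; the authors made these counts with Trim Galore 0.6.10, cutadapt 3.5, STAR 2.7.9a on GRCh38 and featureCounts, per the submitters' processing notes. The annotation release, strand setting and handling of multi-mapped reads are not given in the sources used here, and the kit is named as forward in one label and reverse in others. Of the 86369 identifiers, 61458 matched GENCODE 44, which gave symbols, positions and biotypes; unmatched rows (1.27% to 1.65% of counts) stayed in the tests. Sequences were read from the GRCh38 genome.

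Genes kept by filterByExpr (minimum count 10) entered the edgeR 4.0.16 test in R 4.3.3 (TMM, quasi-likelihood F test, batch and siRNA as additive terms, Benjamini-Hochberg over 13840 genes, threshold 0.05). SEs come from the F statistic. The test was also run on simulated counts with the same variability for all genes and no batch difference, so that run does not cover the batch differences seen here. Alternatives were DESeq2 1.42.0, other scalings and filters, no batch term, a replicate block, single batches, thinning and leaving out each library.

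Named genes were the 5 lncRNAs, the 3 genes most like each, the 5 called lncRNA genes with a symbol and the largest change in each direction (4 were available among increases), called genes of each list (at most 4), genes within 100 kb, and NAT10; of the genes within 100 kb, 1 is not reported here. Genes at the extremes of a list, the examples given for a list and the called genes within 500 kb were chosen after their values were seen. The 5 lncRNAs and the lists were chosen with earlier results of these data known.

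Same-numbered libraries of both groups deviated together (r across genes 0.39, 0.38, 0.45 and 0.36), so the replicate block is given where it changes a call; with group-by-batch means taken out, r was -0.062 in batch 1 and 0.17 in batch 2. Precision from counts covers counting error only.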

Additional observations from a re-analysis of the deposited data

Results flagged for a closer look

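Of 24 groups of 4 values examined (the 5 lncRNAs, their ratios and the lncRNA shares of counts in each group), 0 had a library apart from the other 3 beyond Dixon's critical value, where chance gives about 1 in 20, or 1.2 groups. The interaction of siRNA and batch called 0 of the 5 lncRNAs.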

How the results depend on the processing

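Over all 18 alternatives the log2 fold change of LINC03040 stayed between -1.17 and -0.99 and that of NEAT1 between 0.54 and 0.81, while MALAT1 ran from -0.20 to 0.18, LINC01128 from -0.21 to -0.10 and LINC00115 from -0.08 to 0.36. Counts of calls moved more. Over all genes 315 were called; there were 595 with no filter on low counts, 599 with DESeq2, 193 after thinning to the smallest library, 15 with no batch term, 173 in batch 1 alone, 0 in batch 2 alone (946 at an unadjusted p under 0.05) and 75 to 286 without 1 library. The 5 higher lncRNA genes outside the named 5 became 18 with no filter, 12 with DESeq2, 0 after thinning, 0 with no batch term, 8 with the replicate block, 3 in batch 1 alone, 0 in batch 2 alone and 0 to 5 without 1 library. The 14 lower ones became 9 with library size alone, 29 with no filter, 1 after thinning, 0 with no batch term, 3 in batch 1 alone, 0 in batch 2 alone and 0 to 9 without 1 library. Between batches, the 345 called lncRNA genes became 186 after thinning, and the 1 called among the named 5 became 0 after thinning and 0 to 1 without 1 library. The interaction called 15 genes with no filter and 1 with DESeq2 in place of 0. The 2 calls among well-known lncRNAs became 0 after thinning, 0 with no batch term, 4 with the replicate block, 0 in each batch alone and 0 to 1 without 1 library. The speckle and SR list went from 0 calls to 1 with no filter, with DESeq2, with the replicate block and in batch 1 alone, and to 0 to 1 without 1 library. The difference in lncRNA share was 0.12 percentage points without siCtrl replicate 1 (exact p = 0.029) and 0.067 to 0.12 over all libraries left out. The causes of these moves were not tested. Thinned, single-batch and smaller fits also have fewer counts or samples. With 31 counts in its shallowest library, LINC00115 is limited by depth, and MALAT1 is not.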
